A study of Homo sapiens with 43 samples.

Results

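Dexamethasone and interferon gamma were set against each other in GM12878, a line of human B cells transformed by Epstein-Barr virus. Dexamethasone (Dex) is a synthetic glucocorticoid and interferon gamma (IFNg) a cytokine of T and NK cells. The members are the 4 libraries of a stimulus panel that the sample titles place in the groups Dex 6 h (500 nM) and IFNg 6 h (100 ng/mL), 2 of each, out of 43 libraries in the series. The panel's vehicle libraries, 2 with DMSO and 2 with PBS at 6 h, serve as the reference level that shows whether a gene moved with Dex, with IFNg or with both. The labels do not say which vehicle goes with which stimulus, so each was set against the mean of both vehicle groups. The series asks how BAF chromatin remodelling complexes take part in transcriptional stimulus responses. In its second GM12878 experiment cells received the same doses of Dex or IFNg, or vehicle, for 1 h or 6 h after 30 min with DMSO or with 10 µM BRM014, an inhibitor of the BAF ATPases SMARCA4 and SMARCA2. Those libraries share none with the panel and are used here to see whether the same contrast recurs. All groups are 1 cell line in culture, so nothing here speaks of other donors or of primary B cells.

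Dexamethasone binds the glucocorticoid receptor (encoded by NR3C1), which enters the nucleus, binds DNA and raises some genes while lowering many inflammatory ones. IFNg binds a receptor of IFNGR1 and IFNGR2 chains, and signals through the kinases JAK1 and JAK2 to gamma-activated sites (GAS) in DNA, raising IRF1, guanylate-binding proteins, chemokines and antigen presentation genes. In B cells and their precursors glucocorticoids are known for promoting cell death, and IFNg for raising MHC and antiviral genes.

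The Dex libraries held 15675053 and 20986170 gene counts, the IFNg libraries 16623540 and 16681945, and the vehicle libraries between 14216120 and 22939910. Values are CPM, the counts relative to library size after TMM scaling, and fold changes are log2 of Dex over IFNg with their standard error. Called means an adjusted p below 0.05 (Benjamini-Hochberg over all 15775 genes tested) in edgeR's quasi-likelihood test. The labels do not say that replicates came from separate cultures, so p-values measure the spread between replicate libraries, which may be technical. That spread was estimated over all 15 libraries of the panel (8 groups), those with TNF, LPS, IL2 and Dox included. The 10 B cell markers fixed for the line summed to 14900 and 16000 CPM with Dex, 15300 and 16100 CPM with IFNg and 15400 to 16800 CPM in vehicle, and none was at 0 in any of these libraries. T and NK cell markers summed to at most 63.2 CPM with Dex, 70.1 CPM with IFNg and 81.3 CPM in vehicle. Of these 10 markers 5 were at 0 in each Dex library, and 5 and 1 in the IFNg libraries. NKG7, KLRD1, CD3E and TRAC passed the expression filter. TRAC was called lower with Dex (log2 -0.18), a call lost in DESeq2. Monocyte markers summed to 1.14 and 1.47 CPM with Dex and 0.839 and 1.08 CPM with IFNg, liver and epithelial markers to at most 4.87 CPM and erythroid markers to at most 0.319 CPM in any of these libraries. Mitochondrial genes took 6.6% and 6.31% of counts with Dex and 5.71% and 5.80% with IFNg, and their part in the results was not tested.

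The Dex and IFNg libraries differed at many genes. Against IFNg, 2165 genes were higher with Dex (13.7% of those tested) and 2332 were lower (14.8%). The difference exceeded 2-fold for 412 higher and 321 lower genes, and 8-fold for 67 higher and 40 lower genes. The median over all genes was 0.00943 on the log2 scale. Of the higher genes, 1275 were called for Dex alone against vehicle, 200 for IFNg alone, 248 for both and 442 for neither. Of the lower genes, 950 were called for Dex alone, 470 for IFNg alone, 482 for both and 430 for neither. In bulk RNA, a change in the share of cells that express a gene and a change in RNA per cell cannot be told apart.

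The 12 genes furthest on the Dex side were led by OGFRL1, VSTM2L, TSC22D3 and NHSL1. TSC22D3 (GILZ, chrX:107713221-107777342 on hg38), a leucine zipper protein that mediates anti-inflammatory glucocorticoid effects, had 477 and 488 CPM in Dex libraries, against 18.5 and 17.7 CPM in IFNg libraries and 22.1 to 26.2 CPM in vehicle. Its Dex values lay far above every other library, and its IFNg values below every vehicle library. The direct log2 fold change was 4.74 ± 0.06 (adjusted p = 8.5e-34). OGFRL1 had 141 and 142 CPM in Dex libraries, against 4.03 and 4.18 CPM in IFNg libraries and 3.67 to 7.53 CPM in vehicle, a direct log2 fold change of 5.11 ± 0.12. VSTM2L had 24.9 and 25.4 CPM in Dex libraries, against 0.682 and 1.17 CPM in IFNg libraries (4.75 ± 0.22). The difference of both genes came from the Dex libraries, since the IFNg values overlapped the vehicle range. Also on this side were LGR4, a receptor for R-spondins, with 8.55 and 8.63 CPM against 0.496 and 0.430 CPM, and B4GALNT1, a ganglioside synthase, with 8.23 and 7.44 CPM against 0.434 and 0.430 CPM. TLE1, a transcriptional corepressor, had 8.16 and 6.48 CPM against 0.868 and 0.676 CPM. SLC9A2 (a sodium-proton exchanger), TAMALIN, CEMIP2 (a hyaluronidase), FRMD3 and GRIN2A (a subunit of NMDA receptors) completed the 12. Their direct log2 fold changes were 4.38, 3.67, 3.60, 3.51 and 3.17. In the IFNg libraries SLC9A2 had 2 and 7 counts, TAMALIN 4 and 12, and NHSL1 6 and 5. Their ratios of Dex over IFNg had exact 95% intervals of 11.4 to 49, 7.84 to 23.1 and 14.2 to 52.2, for counting error only. These 12 were chosen for the size of the contrast, so their values describe it. All 12 were called for Dex against vehicle and 3 for IFNg, namely TSC22D3 and GRIN2A (lower) and FRMD3 (higher).

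On the IFNg side the 12 furthest genes included the chemokines CXCL9 and CXCL10 and 4 guanylate-binding proteins. GBP4 (chr1:89181144-89198942 on hg38), a guanylate-binding GTPase of antimicrobial defence, had 10.7 and 11.3 CPM in Dex libraries, against 503 and 520.1 CPM in IFNg libraries and 29.8 to 36.0 CPM in vehicle. The 4 vehicle libraries lay between the Dex and the IFNg libraries, with no overlap. The direct log2 fold change of GBP4 was -5.53 ± 0.07, or 46.2-fold lower with Dex (adjusted p = 1.5e-34). CXCL9, a ligand of the chemokine receptor CXCR3, had 4.59 and 4.05 CPM in Dex libraries, against 290.2 and 289 CPM in IFNg libraries and 6.14 to 8.35 CPM in vehicle (-6.08 ± 0.10). CXCL10, another CXCR3 ligand, had 2.68 and 2.15 CPM in Dex libraries, against 105 and 105 CPM in IFNg libraries (-5.46 ± 0.14). Both chemokines were lower with Dex than in any vehicle library as well as higher with IFNg. HAPLN3 differed in this: it had 1.66 and 1.76 CPM in Dex libraries, against 93.8 and 97.3 CPM in IFNg libraries and 1.54 to 2.39 CPM in vehicle, so its Dex values lay within the vehicle range. Other members were GBP5, GBP1, GBP2, UBD (a ubiquitin-like modifier), HGF (hepatocyte growth factor), TNFSF10 (the death ligand TRAIL) and APOL6, with direct log2 fold changes from -5.45 for GBP5 to -3.41 for GBP2. Of the 12, 10 fell with Dex and rose with IFNg against vehicle, the exceptions being HAPLN3 and HGF, which were called for IFNg alone.

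Relative to vehicle, Dex raised 2052 genes (13.0%) and lowered 2000 (12.7%), and IFNg raised 1122 (7.11%) and lowered 750 (4.75%). Each gene called in both comparisons falls into 1 of 4 direction classes. Dex lowered and IFNg raised 372 genes (2.36% of those tested), Dex raised and IFNg lowered 198 (1.26%), both raised 166 (1.05%) and both lowered 254 (1.61%). Both comparisons use the same 4 vehicle libraries, so a vehicle library that strays moves a gene the same way in both. The PBS replicates were uneven, with a chi-square per degree of freedom of 6.68 over genes with at least 20 counts. Sampling noise alone gives about 1. The DMSO, Dex and IFNg replicates had 2.68, 3.39 and 2.60. With Dex set against DMSO and IFNg against PBS, which share no library, the classes held 347, 201, 115 and 192 genes. With the vehicles exchanged they held 301, 130, 126 and 157. The second and the last class depended on single IFNg libraries: they held 117 and 147 genes without IFNg replicate 1, and 94 and 121 without IFNg replicate 2. DMSO and PBS themselves differed for 69 genes (0.437%), of which 7, 4, 0 and 4 were in the classes. By construction the first class is lower and the second higher with Dex in the direct contrast. Most of these changes were small. The median log2 change in the first class was -0.346 with Dex and 0.355 with IFNg, and in the second 0.433 with Dex and -0.264 with IFNg. Genes raised by both had medians of 0.374 with Dex and 0.373 with IFNg, and genes lowered by both -0.367 with Dex and -0.284 with IFNg. Changes beyond 2-fold in both comparisons were found for 11, 0, 14 and 5 genes.

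**Figure D1:**
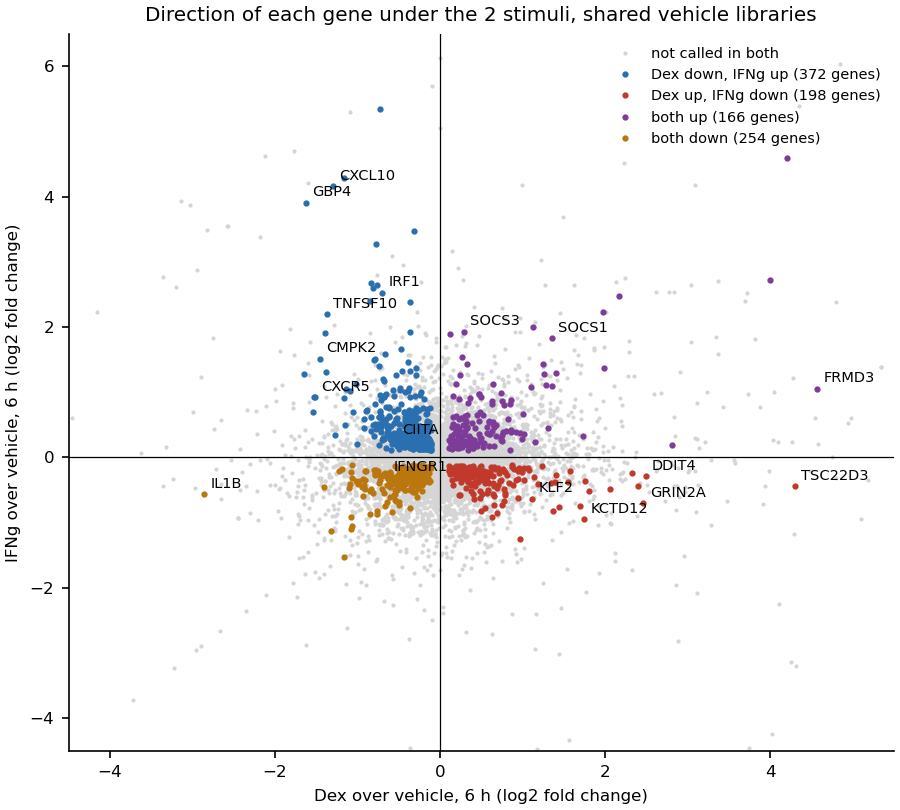
Each point is 1 gene; the x axis is the log2 fold change of Dex over vehicle and the y axis that of IFNg over vehicle at 6 h in the panel. Coloured points are genes called in both comparisons, 372 in the upper left, 198 in the lower right, 166 in the upper right and 254 in the lower left; 31 genes lie outside the axes.

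The genes that Dex lowered and IFNg raised held 28 of the 49 IFNg targets and 28 of the 36 type I interferon-stimulated genes measured. Over all genes tested this class held 2.36%. Among genes with at least 5 CPM in the highest group mean, the 8 whose smaller change against vehicle was largest were GBP4, CMPK2, TNFSF10, OASL, CXCL10, GBP5, TFEC and CACNA1A. CMPK2, a mitochondrial nucleotide kinase induced by interferons, had 2.36 and 4.77 CPM in Dex libraries, against 26.4 and 31.7 CPM in IFNg libraries and 9.1 to 12.3 CPM in vehicle. OASL, a member of the antiviral oligoadenylate synthetase family, had 3.13 and 2.67 CPM in Dex libraries, against 17.2 and 20.03 CPM in IFNg libraries and 6.42 to 8.75 CPM in vehicle. TNFSF10 had 2.81 and 3.05 CPM in Dex libraries, against 30.6 and 39.9 CPM in IFNg libraries and 6.49 to 9.31 CPM in vehicle. In all 8 genes the Dex libraries lay below and the IFNg libraries above every vehicle library. The 8 were chosen by their changes against these same libraries, which favours such separation. TFEC, a transcription factor of the MiT family, had log2 changes of -1.02 with Dex and 1.12 with IFNg, and CACNA1A, a calcium channel subunit, -1.09 and 1.02. In the DMSO-pretreated libraries 5 of the 8 fell into the same class and none into another.

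CIITA, the master coactivator of MHC class II genes, moved far less than GBP4 (chr16:10866222-10943021 on hg38). It had 224 and 209.7 CPM in Dex libraries, against 375 and 378 CPM in IFNg libraries, with 289 and 294 CPM in DMSO and 349.8 and 325 CPM in PBS. The Dex libraries lay below and the IFNg libraries above all 4 vehicle libraries, but the vehicles also differed from each other (log2 -0.21 for DMSO over PBS, adjusted p = 0.0178). The direct log2 fold change was -0.80 ± 0.04 (adjusted p = 4.4e-16), or 1.74-fold lower with Dex. Against vehicle CIITA fell by 0.53 on the log2 scale with Dex and rose by 0.26 with IFNg; against PBS alone the rise was 0.16 (adjusted p = 0.0139). In the DMSO-pretreated 6 h libraries Dex lowered it again (-0.80 ± 0.07), whereas the IFNg change was 0.04 ± 0.06 and not called (adjusted p = 0.829).

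Genes that Dex raised and IFNg lowered moved less with IFNg than with Dex in 138 of 198 cases. By the same rule, with the same minimum of 5 CPM, the 8 genes named were KCTD12, LYPD6B, YPEL1, PIK3IP1, C14orf132, GRIN2A, SLC16A10 and KLF2. KLF2, a transcription factor of lymphocyte quiescence, had 88.4 and 86.4 CPM in Dex libraries, against 24.4 and 27.5 CPM in IFNg libraries and 36.3 to 45.2 CPM in vehicle. PIK3IP1, an inhibitor of phosphoinositide 3-kinase, had 29.6 and 25.2 CPM in Dex libraries, against 5.33 and 4.73 CPM in IFNg libraries and 7.7 to 9.38 CPM in vehicle. KCTD12, an auxiliary subunit of GABA-B receptors, had 16.6 and 15.3 CPM in Dex libraries, against 2.85 and 2.09 CPM in IFNg libraries and 3.57 to 5.52 CPM in vehicle. In all 8 genes the Dex libraries lay above and the IFNg libraries below every vehicle library. Here too the choice by changes against these libraries favours such separation. The fall with IFNg lay between -0.63 for KLF2 and -0.94 for KCTD12 on the log2 scale. It was no longer called without IFNg replicate 2 for KCTD12 (adjusted p = 0.0890), nor without IFNg replicate 1 for YPEL1 (0.0741) and C14orf132 (0.291). In the DMSO-pretreated libraries 4 of the 8 (KCTD12, YPEL1, KLF2, SLC16A10) fell into the same class.

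**Figure D2:**
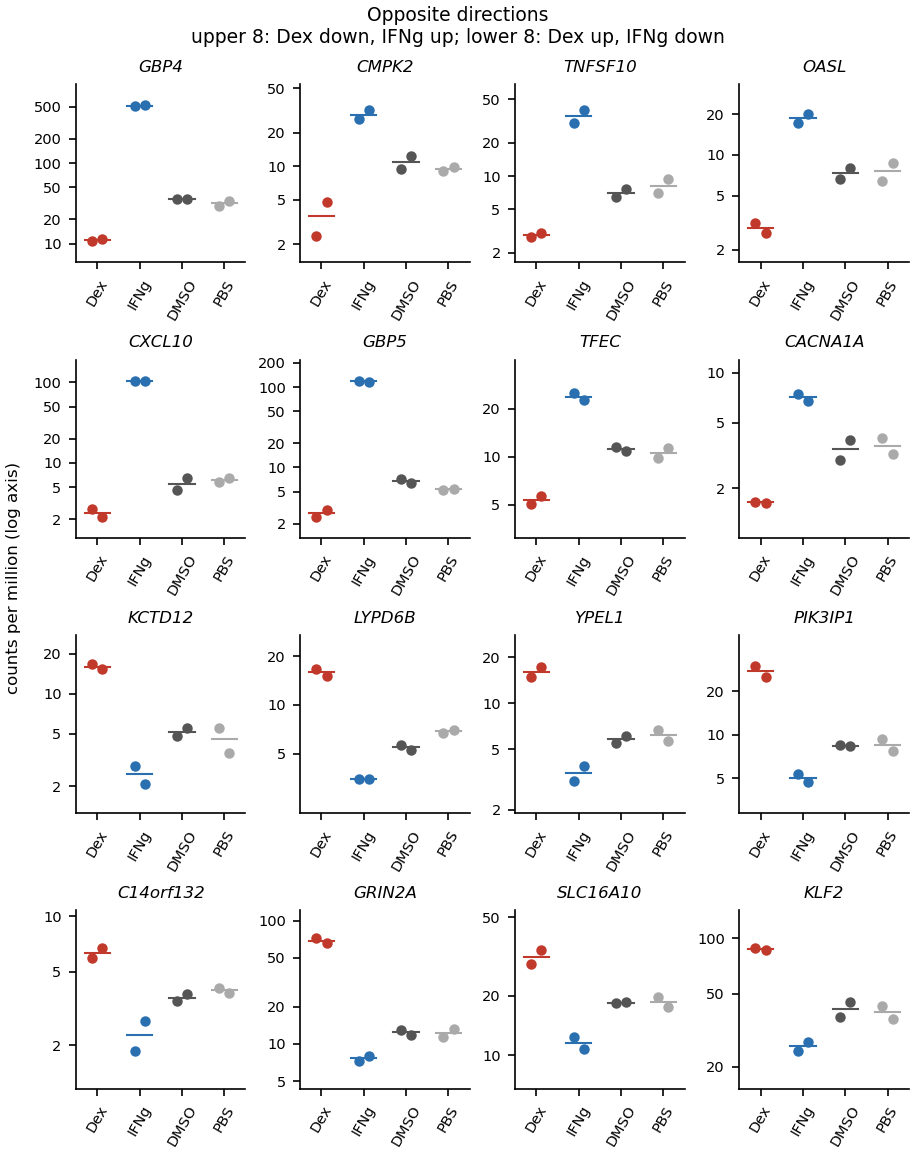
CPM on a log axis in each library of Dex, IFNg, DMSO and PBS at 6 h, for the 8 genes that Dex lowered and IFNg raised and the 8 that Dex raised and IFNg lowered. Points are libraries and bars are means of 2; GBP4 runs from 10.7 to 520.1 CPM, with vehicle between.

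The promoters of 7 genes are shown, opposed ones first and the jointly raised SOCS1 and CISH last, because the stimuli act through DNA-binding factors with known recognition sequences. Each is the 250 bases before the gene's start in RefSeq (GRCh38.p14), on the gene's strand. Capitals mark matches on either strand to the IRF core GAAANNGAA, the GAS motif TTCNNNGAA or the receptor half-site AGAACA.
GBP4 (chr1:89198943-89199192, minus strand): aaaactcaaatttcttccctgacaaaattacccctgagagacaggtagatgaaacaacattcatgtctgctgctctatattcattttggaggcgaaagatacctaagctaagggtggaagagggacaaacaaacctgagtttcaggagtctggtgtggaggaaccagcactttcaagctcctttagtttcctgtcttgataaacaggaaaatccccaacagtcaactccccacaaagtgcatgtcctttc
CXCL10 (chr4:76023498-76023747, minus strand): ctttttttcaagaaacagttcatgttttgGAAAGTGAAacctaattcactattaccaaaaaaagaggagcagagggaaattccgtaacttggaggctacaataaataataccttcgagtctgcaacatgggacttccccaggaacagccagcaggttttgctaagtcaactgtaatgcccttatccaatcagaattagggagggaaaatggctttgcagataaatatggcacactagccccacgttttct
TNFSF10 (chr3:172523431-172523680, minus strand): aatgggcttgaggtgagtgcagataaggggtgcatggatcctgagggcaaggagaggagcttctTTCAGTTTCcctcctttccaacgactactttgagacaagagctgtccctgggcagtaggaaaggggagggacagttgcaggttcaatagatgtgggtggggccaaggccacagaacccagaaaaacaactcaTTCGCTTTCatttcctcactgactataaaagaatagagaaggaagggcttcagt
IRF1 (chr5:132490774-132491023, minus strand): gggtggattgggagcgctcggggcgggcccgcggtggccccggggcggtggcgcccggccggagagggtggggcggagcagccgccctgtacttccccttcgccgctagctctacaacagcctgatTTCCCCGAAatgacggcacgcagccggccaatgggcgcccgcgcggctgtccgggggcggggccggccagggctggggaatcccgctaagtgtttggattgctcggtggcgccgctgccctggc
PIK3IP1 (chr22:31292535-31292784, minus strand): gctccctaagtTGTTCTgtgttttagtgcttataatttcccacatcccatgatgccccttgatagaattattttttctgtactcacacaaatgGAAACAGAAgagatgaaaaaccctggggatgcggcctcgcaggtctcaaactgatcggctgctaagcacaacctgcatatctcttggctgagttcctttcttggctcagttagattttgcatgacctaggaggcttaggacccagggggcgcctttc
SOCS1 (chr16:11256205-11256454, minus strand): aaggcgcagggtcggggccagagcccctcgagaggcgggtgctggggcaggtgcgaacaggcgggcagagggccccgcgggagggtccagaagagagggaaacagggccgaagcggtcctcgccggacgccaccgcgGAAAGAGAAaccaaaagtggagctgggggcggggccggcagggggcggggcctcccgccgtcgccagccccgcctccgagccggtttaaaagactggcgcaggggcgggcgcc
CISH (chr3:50611775-50612024, minus strand): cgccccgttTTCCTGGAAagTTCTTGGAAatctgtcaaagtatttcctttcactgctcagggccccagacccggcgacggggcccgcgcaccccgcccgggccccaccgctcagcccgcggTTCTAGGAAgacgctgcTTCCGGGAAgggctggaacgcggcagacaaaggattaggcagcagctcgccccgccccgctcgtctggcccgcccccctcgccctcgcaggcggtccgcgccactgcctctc

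The window of GBP4 held no match to these motifs, those of CXCL10 and SOCS1 held 1 IRF core each and that of TNFSF10 held 2. IRF1 held 1 GAS motif and CISH 4, and the PIK3IP1 window shown held 1 half-site and 1 IRF core. Over the table's 35116 windows of this length the half-site was found in 12.4%, the GAS motif in 6.57% and the IRF core in 6.88%. Over the 16109 windows of the tested genes that matched the table by symbol (11184 genes) the shares were 8.57%, 5.57% and 5.88%. For genes that Dex lowered and IFNg raised (298 genes matched) they were 8.60%, 10.2% and 16.7%, and for genes that Dex raised and IFNg lowered (163 genes matched) 7.64%, 4.73% and 6.55%. For genes raised by both (133 matched) they were 5.69%, 8.06% and 8.53%, and for genes lowered by both (204 matched) 10.9%, 4.51% and 4.77%. Windows of 1 gene can overlap, and a match is a description of letters and not a site of binding.

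Genes that both stimuli raised included the inhibitors of cytokine signalling SOCS1 and CISH. SOCS1, which blocks JAK kinases, had 49.7 and 48.4 CPM in Dex libraries, against 69.5 and 66.9 CPM in IFNg libraries and 16.1 to 21.6 CPM in vehicle. The Dex and IFNg libraries all lay above every vehicle library, and the IFNg libraries above the Dex libraries. SOCS1 rose by 1.35 ± 0.08 with Dex and 1.83 ± 0.08 with IFNg on the log2 scale, and the direct difference was -0.48 ± 0.09 (adjusted p = 0.00016). CISH, a related inhibitor of STAT5 signalling, had 10.2 and 10.6 CPM in Dex libraries, against 9.74 and 8.85 CPM in IFNg libraries and 4.02 to 4.63 CPM in vehicle. Its direct difference was 0.16 ± 0.14 (adjusted p = 0.433), which did not pass the threshold. CLIP1, a microtubule plus-end protein, had 135 and 140.2 CPM in Dex libraries, against 133 and 136 CPM in IFNg libraries and 74.2 to 80.3 CPM in vehicle, with a direct difference of 0.04 ± 0.05 (adjusted p = 0.664). PRRG4, SAMD4A, ELOVL7 (a fatty acid elongase), FMNL2 (a formin) and FRMD3 were the others of the 8 named by that rule; genes with larger changes below 5 CPM are not named. FRMD3 rose by 4.57 with Dex and 1.05 with IFNg, and its IFNg call was lost without IFNg replicate 2 (adjusted p = 0.352) or DMSO replicate 1 (0.0643). The Dex call of ELOVL7 was lost without Dex replicate 1 (0.0594). Of the 8, 6 were in the same class in the DMSO-pretreated libraries, among them SOCS1, CISH and CLIP1, but not FMNL2 and SAMD4A. Of the 166 genes raised by both, 90 were not called in the direct contrast, 40 were higher and 36 lower with Dex.

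Genes that both stimuli lowered included TLR9, SGK1 and IL1B, mostly by less than 2-fold. TLR9, the endosomal receptor for unmethylated DNA, had 4.91 and 6.82 CPM in Dex libraries, against 4.22 and 7.0 CPM in IFNg libraries and 9.27 to 9.71 CPM in vehicle. RGCC, a cell cycle regulator, had 5.42 and 5.72 CPM in Dex libraries, against 5.64 and 5.47 CPM in IFNg libraries and 8.11 to 9.66 CPM in vehicle. SGK1, a kinase that glucocorticoids are known to raise in many other cell types, had 6.25 and 5.34 CPM in Dex libraries, against 4.9 and 6.51 CPM in IFNg libraries and 7.56 to 9.31 CPM in vehicle. For all 3 genes every Dex and IFNg library lay below every vehicle library, a separation that their choice by changes against vehicle favours. Their direct differences were 0.08 ± 0.20, 0.01 ± 0.16 and 0.01 ± 0.17, none called. IL1B, the inflammatory cytokine interleukin 1 beta, was the unequal case, with 0.829 and 0.620 CPM in Dex libraries, against 3.6 and 3.44 CPM in IFNg libraries and 4.51 to 5.81 CPM in vehicle (13 counts in each Dex library, 58 and 56 in the IFNg libraries). Its direct log2 fold change was -2.30 ± 0.27. DAPK2 (a death-associated kinase), EFR3B, RAB37 (a vesicle GTPase) and SLC16A14 were the others. Several of these calls rested on single libraries: the IFNg fall of IL1B was lost without IFNg replicate 1 or 2 (adjusted p = 0.113 and 0.197), DMSO replicate 1 (0.0714) or PBS replicate 2 (0.0779). TLR9 left the class without Dex replicate 1 (0.0930) or IFNg replicate 1 (0.194), SGK1 without Dex replicate 2 (0.100) or IFNg replicate 1 (0.238). RAB37 left it without 5 of the 8 libraries in turn and SLC16A14 without 4. In the DMSO-pretreated libraries DAPK2, EFR3B and SGK1 were lowered by both again.

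**Figure D3:**
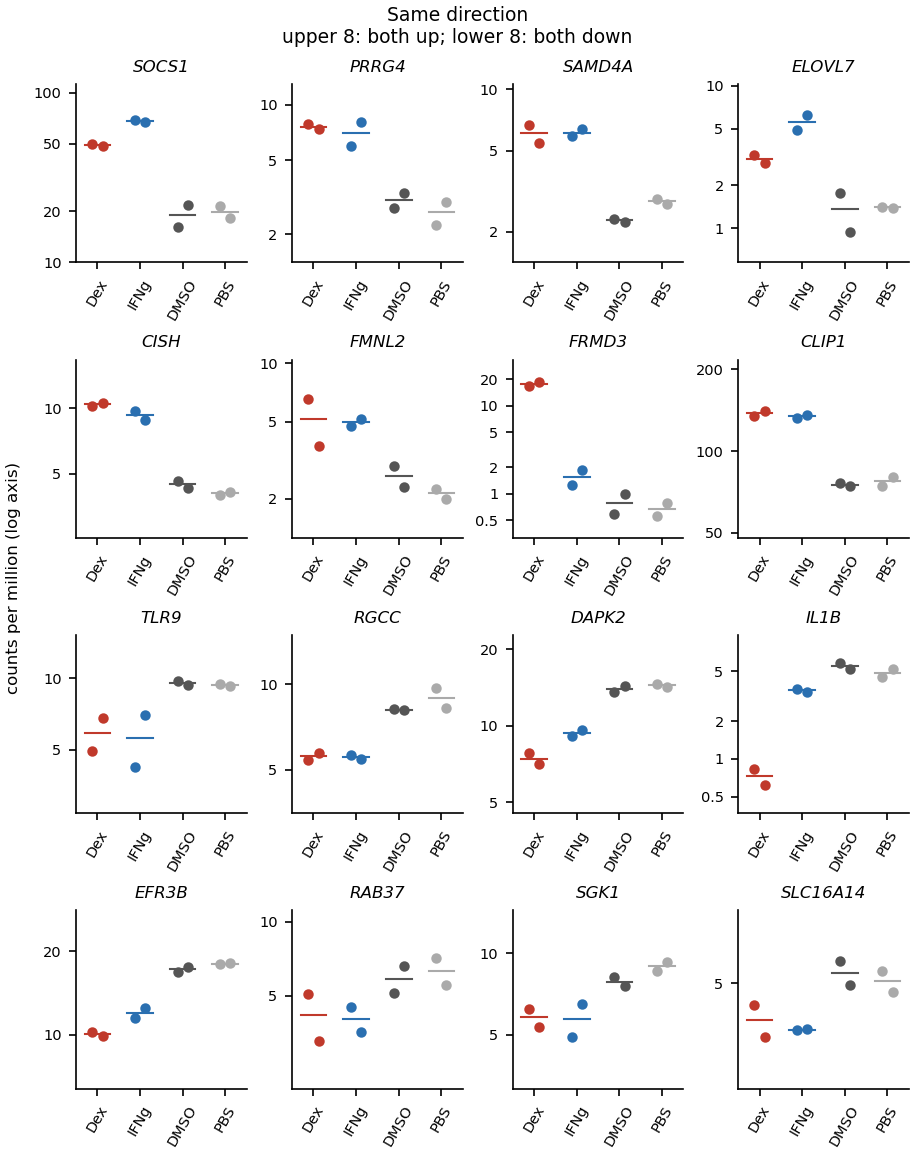
CPM on a log axis in each library of Dex, IFNg, DMSO and PBS at 6 h, for 8 genes raised by both stimuli and 8 lowered by both. Points are libraries and bars are means of 2. The Dex and IFNg libraries lie on the same side of the vehicle libraries in each panel. The genes were chosen by their changes against these vehicle libraries, which favours this. FRMD3 and IL1B show the widest gap between the stimuli.

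Several receptors and signalling proteins of both pathways differed between the stimuli. NR3C1, the glucocorticoid receptor, had 111 and 112 CPM in Dex libraries, against 165 and 161 CPM in IFNg libraries and 162 to 185 CPM in vehicle, a direct log2 fold change of -0.55 ± 0.05 (adjusted p = 2.1e-10). It fell with Dex alone. IFNGR1, the ligand-binding chain of the IFNg receptor, had 92.0 and 97.2 CPM in Dex libraries, against 119.8 and 121 CPM in IFNg libraries and 143 to 151 CPM in vehicle, so that it fell with both and further with Dex (-0.34 ± 0.05). IFNGR2, the second chain, had 105 and 99.8 CPM in Dex libraries, against 77.1 and 79.7 CPM in IFNg libraries and was higher with Dex (0.38 ± 0.06). JAK2 rose with IFNg and had 35.9 and 46.1 CPM in Dex libraries, against 75.9 and 85.5 CPM in IFNg libraries (-0.96 ± 0.09). JAK1 differed by 0.13 ± 0.05 (adjusted p = 0.03), a call lost without Dex replicate 1 (0.0654), Dex replicate 2 (0.123) or IFNg replicate 1 (0.227). STAT2 and STAT3 were lower with Dex than with IFNg by 1.35 and 0.88 on the log2 scale. PTPN1, a phosphatase acting on JAK2, had 273 and 269.8 CPM in Dex libraries, against 198 and 194 CPM in IFNg libraries and 159 to 166 CPM in vehicle and was higher with Dex (0.47 ± 0.04). SOCS2 was also higher with Dex (0.53) and SOCS3 lower (-1.64). In all, of 21 genes of the IFNg receptor, JAK-STAT and SOCS list 4 were higher and 12 lower with Dex, with a median of -0.168. Over all genes tested 13.7% were higher and 14.8% lower with Dex.

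The transcription factor IRF1, which carries the IFNg signal to secondary targets, had 47.2 and 50.5 CPM in Dex libraries, against 477 and 442 CPM in IFNg libraries and 76.5 to 82.7 CPM in vehicle. Dex libraries lay below and IFNg libraries above the vehicle libraries, and the direct log2 fold change was -3.23 ± 0.06. IRF5 and IRF8 were lower with Dex than with IFNg (-0.94 and -0.68), whereas IRF4, a driver of plasma cell differentiation, was higher with 1886 and 1924 CPM in Dex libraries, against 1296 and 1267 CPM in IFNg libraries (0.57 ± 0.04). Of the 9 IRFs, 6 were lower and 2 higher with Dex, beside 14.8% and 13.7% of all genes tested.

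Known IFNg targets were lower with Dex almost throughout: 47 of 49 measured were lower and 2 higher, with a median direct log2 fold change of -1.61. The shares over all genes tested were 14.8% lower and 13.7% higher. Against vehicle IFNg raised 48 of the 49, and Dex lowered 28 and raised 6. Over all genes tested IFNg raised 7.11% against vehicle, and Dex lowered 12.7% and raised 13.0%. Those that fell with Dex and rose with IFNg made up 2.36%. The 2 targets higher with Dex than with IFNg were PIM1, a serine kinase (0.58), and VAMP5, a vesicle membrane protein (0.45). The call of VAMP5 was lost without Dex replicate 1 (adjusted p = 0.0902) or IFNg replicate 2 (0.0753). CXCL11 and SERPING1, looked up after the values were seen, had 0 counts in both Dex libraries. CXCL11, another CXCR3 ligand, had 15 and 14 counts with IFNg, at least 8.11-fold lower with Dex by the exact 95% interval of the counts, which covers counting error only. SERPING1, the C1 inhibitor of complement, had 3 and 15 counts with IFNg, so its difference rests on IFNg replicate 2. The list median was the same with both genes set to a floor of 3 counts over the Dex group. All 6 guanylate-binding proteins measured were lower with Dex (median -3.73), and all 6 fell with Dex and rose with IFNg against vehicle. Reads of such near-identical family members may be shared in counting, so single GBP and HLA values are uncertain. Of 36 type I interferon-stimulated genes 35 were lower with Dex (median -1.20), and Dex lowered 29 of the 36 against vehicle. TRIM21, a cytosolic antibody receptor, had 24.0 and 24.7 CPM in Dex libraries, against 67.5 and 71.8 CPM in IFNg libraries and 32.9 to 35.3 CPM in vehicle. EPSTI1 had 36.2 and 38.7 CPM in Dex libraries, against 108 and 114 CPM in IFNg libraries and 41.2 to 49.6 CPM in vehicle. TRIM22 was raised by both, by 0.16 with Dex and 0.94 with IFNg.

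Antigen presentation genes of both MHC classes were mostly lower with Dex than with IFNg, compared with 14.8% of all genes tested. Of 20 MHC class I genes 19 were lower with Dex (median -0.471). Against vehicle IFNg raised 16 and Dex lowered 11, beside 7.11% and 12.7% of all genes tested. TAP1, the peptide transporter, had 362 and 371 CPM in Dex libraries, against 1256 and 1242 CPM in IFNg libraries and 309 to 353 CPM in vehicle (-1.77 ± 0.05), and both stimuli raised it, IFNg further. NLRC5, the coactivator of MHC class I genes, had 142 and 127 CPM in Dex libraries, against 416 and 421 CPM in IFNg libraries and 138 to 155 CPM in vehicle (-1.64 ± 0.05). TAP2 and the immunoproteasome subunit PSMB8 were lower by 1.13 and 0.73 on the log2 scale. Of 20 MHC class II genes 16 were lower with Dex (median -0.282). Here Dex lowered 16 against vehicle and IFNg raised 4, beside 12.7% and 7.11% of all genes tested. HLA-DQA1 had 529 and 537 CPM in Dex libraries, against 753 and 772 CPM in IFNg libraries and 741 to 765 CPM in vehicle, with the IFNg libraries overlapping the vehicle range. IFI30, a lysosomal thiol reductase, had 102 and 98.7 CPM in Dex libraries, against 178 and 169.9 CPM in IFNg libraries and 143 to 158 CPM in vehicle and was moved by both, in opposite directions. RFX5, which binds class II promoters, was lower by 0.45 on the log2 scale.

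Genes known to be induced by glucocorticoids were higher with Dex for 15 of 27 measured and lower for 2 (median 0.542). For this and the lists below, the shares over all genes tested were 13.7% higher and 14.8% lower. The next counts are again of the glucocorticoid-induced genes. Against vehicle Dex raised 19 of them, beside 13.0% of all genes tested. FKBP5, a cochaperone that feeds back on the receptor, had 845 and 878 CPM in Dex libraries, against 112 and 115 CPM in IFNg libraries and 119 to 128 CPM in vehicle (2.93 ± 0.05). DDIT4, an inhibitor of mTORC1, had 436 and 462 CPM in Dex libraries, against 68.6 and 62.2 CPM in IFNg libraries and 75.2 to 81.8 CPM in vehicle (2.78 ± 0.06). TXNIP, a thioredoxin-binding protein that limits glucose uptake, had 722 and 749.5 CPM in Dex libraries, against 360.5 and 363 CPM in IFNg libraries and 363 to 429 CPM in vehicle (1.02 ± 0.04). FKBP5, DDIT4 and TXNIP were highest in the Dex libraries without overlap, and IFNg lowered DDIT4 and TXNIP. The 2 lower genes were BCL6, a transcriptional repressor active in germinal centre B cells, and SLC7A11, a cystine transporter (-0.45 ± 0.11). BCL6 had 6 and 11 counts in the Dex libraries against 37 and 32 in the IFNg libraries (-2.19 ± 0.50). DESeq2 gave no adjusted p for BCL6. The call of SLC7A11 was lost without Dex replicate 2 or IFNg replicate 1. Among 22 genes for the receptor, its chaperones and cofactors 2 were higher (FKBP5, MED14) and 9 lower with Dex. The clock repressor PER1 had 78.6 and 79.8 CPM in Dex libraries, against 31.8 and 31.8 CPM in IFNg libraries (1.32 ± 0.07), and NFIL3, a repressor tied to the clock, 12.1 and 12.5 CPM in Dex libraries, against 2.54 and 3.87 CPM in IFNg libraries (1.94 ± 0.20). Of 13 KLF factors 7 were higher and 1 lower with Dex: KLF9 had 23.9 and 20.9 CPM in Dex libraries, against 3.91 and 5.22 CPM in IFNg libraries, and KLF6 137 and 138 CPM in Dex libraries, against 73.8 and 72.1 CPM in IFNg libraries.

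**Figure D4:**
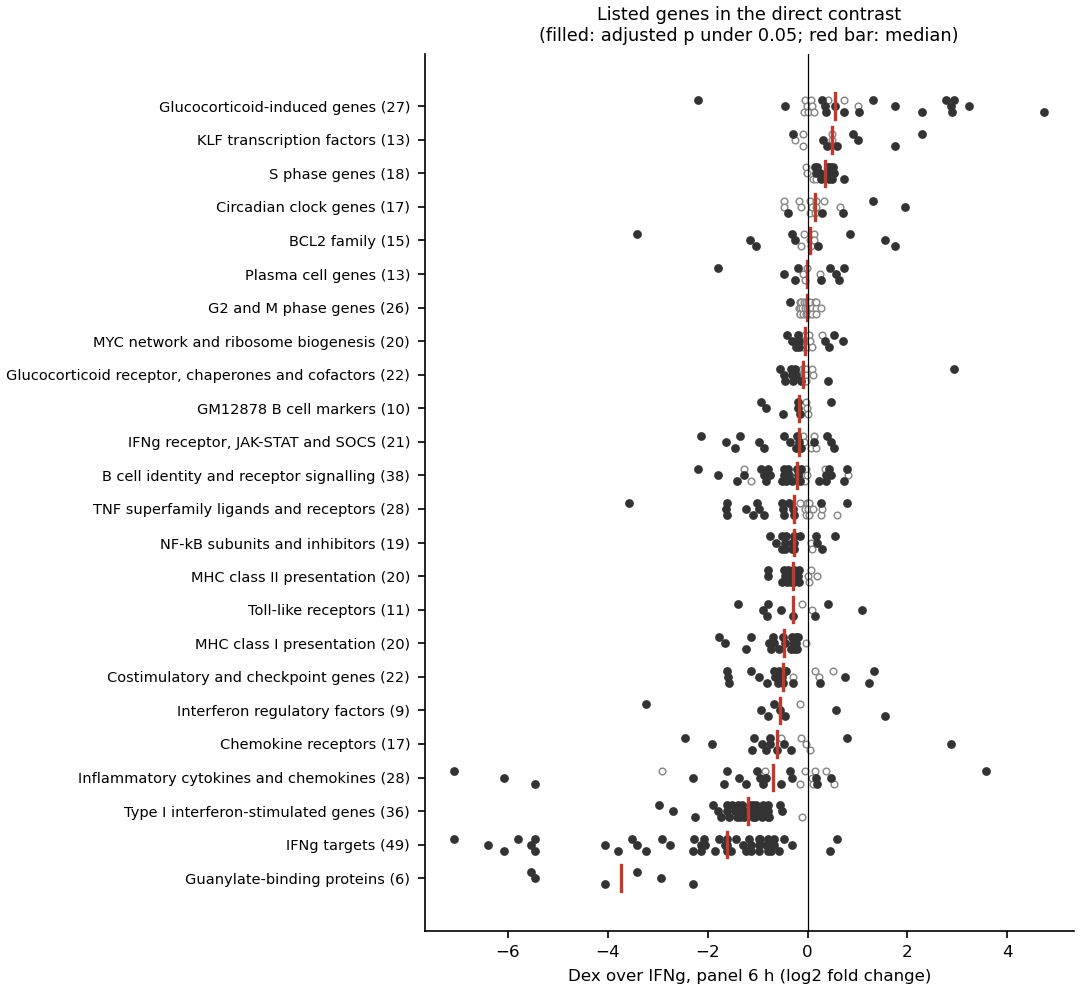
Direct log2 fold change of Dex over IFNg for the measured genes of each list (number in brackets), lists ordered by median. Filled points passed an adjusted p of 0.05, open points did not, and red bars are medians, from 0.542 for glucocorticoid-induced genes to -3.73 for guanylate-binding proteins; CXCL11 and SERPING1, at 0 counts with Dex, are drawn at their fitted values, which are no bounds.

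Secreted and surface immune mediators were mostly lower with Dex, compared with 14.8% lower and 13.7% higher over all genes tested. Of 28 inflammatory cytokines and chemokines 15 were lower and 4 higher (CXCL13, CCL4, IL16, EBI3; median -0.685). TNF had 69.8 and 71.3 CPM in Dex libraries, against 159 and 174 CPM in IFNg libraries and 108 to 121 CPM in vehicle, and LTA, its relative lymphotoxin alpha, 71.7 and 69.5 CPM in Dex libraries, against 222 and 212 CPM in IFNg libraries and 154 to 191 CPM in vehicle. Both fell with Dex and rose with IFNg, with no overlap of the groups. CXCL13, a B cell attracting chemokine, had 18 and 40 counts with Dex against 3 and 1 with IFNg, a ratio of 13.2 (exact 95% interval 4.88 to 50.0, counting error only), and DESeq2 gave it no adjusted p. The calls of IL16 and EBI3 were each lost without 1 or more libraries (IL16 without IFNg replicate 2, adjusted p = 0.134). Of 17 chemokine receptors 11 were lower and 2 higher. CXCR4, which retains lymphocytes in marrow, had 76.3 and 83.2 CPM in Dex libraries, against 12.3 and 9.52 CPM in IFNg libraries and 9.97 to 12.6 CPM in vehicle (2.87 ± 0.12). CXCR5, the follicle homing receptor that binds CXCL13, ran the other way with 3.19 and 2.96 CPM in Dex libraries, against 18.3 and 15.2 CPM in IFNg libraries and 7.94 to 9.8 CPM in vehicle (-2.45 ± 0.15). S1PR4 was the other higher one (0.79). Of 22 costimulatory and checkpoint genes 14 were lower and 4 higher. CD274, the checkpoint ligand PD-L1, had 29.1 and 28.1 CPM in Dex libraries, against 85.1 and 88.8 CPM in IFNg libraries and 42.6 to 48.3 CPM in vehicle, and VSIR, the checkpoint protein VISTA, 34.8 and 34.0 CPM in Dex libraries, against 15.2 and 14.2 CPM in IFNg libraries and 18.4 to 21.0 CPM in vehicle. CD274 thus fell with Dex and rose with IFNg, and VSIR did the reverse.

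Of 15 genes of the BCL2 family 4 were higher and 5 lower with Dex, beside 13.7% and 14.8% of all genes tested. The 4 that were higher were BCL2L11, BMF, BIK and PMAIP1, all BH3-only promoters of apoptosis. Not called were 6 members: the BH3-only BBC3, BID and BAD, the survival proteins BCL2 and BCL2L2, and BAX. BCL2L11 (BIM) had 41.6 and 46.0 CPM in Dex libraries, against 13.0 and 13.0 CPM in IFNg libraries and 13.6 to 15.7 CPM in vehicle (1.76 ± 0.10). BMF had 195 and 197 CPM in Dex libraries, against 107 and 110.04 CPM in IFNg libraries and 128 to 149.6 CPM in vehicle, raised by Dex and lowered by IFNg (0.86 ± 0.05). BIK differed by 1.54 ± 0.24, and PMAIP1 (NOXA), raised by both, by 0.22 ± 0.05. The 5 lower were the survival proteins MCL1, BCL2A1 and BCL2L1 and also BAK1, an effector of apoptosis, and BCL2L14, with the family's largest difference (-3.40). MCL1 had 294 and 314 CPM in Dex libraries, against 618 and 634 CPM in IFNg libraries and 384 to 420.4 CPM in vehicle (-1.04 ± 0.05), and BCL2A1 56.1 and 56.4 CPM in Dex libraries, against 129.8 and 119 CPM in IFNg libraries and 82.5 to 91.1 CPM in vehicle (-1.14 ± 0.06). Both were below vehicle with Dex and above it with IFNg. BCL2L1 (BCL-XL) differed by -0.31 ± 0.05, though DMSO and PBS differed for it as well (log2 -0.30). The call of BAK1 was lost without IFNg replicate 2 (adjusted p = 0.0637).

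B cell identity genes were lower with Dex for 20 and higher for 7 of 38. Of the 10 markers used to check the line 6 were lower and 1 higher. PAX5, the B lineage factor, had 236 and 239 CPM in Dex libraries, against 449.8 and 457 CPM in IFNg libraries and 383 to 412 CPM in vehicle (-0.93 ± 0.05). CD38 had 38.6 and 41.6 CPM in Dex libraries, against 133 and 146 CPM in IFNg libraries and 50.6 to 60.6 CPM in vehicle (-1.79 ± 0.06), and CD83 69.2 and 77.4 CPM in Dex libraries, against 179 and 174 CPM in IFNg libraries (-1.26 ± 0.05). BLK, a Src family kinase of the B cell receptor, ran the other way with 380.4 and 377 CPM in Dex libraries, against 220.1 and 215 CPM in IFNg libraries and 278 to 298 CPM in vehicle. PRDM1 (Blimp-1), the plasma cell factor, was raised by both and more by Dex, with 81.8 and 74.6 CPM in Dex libraries, against 48.7 and 46.1 CPM in IFNg libraries and 38.2 to 41.2 CPM in vehicle (0.72 ± 0.07). Among 19 NF-kB subunits and inhibitors 13 were lower and 4 higher with Dex, the higher ones being the inhibitors TNIP2, TNFAIP3 and TNIP1 and the kinase IKBKB. The call of IKBKB was lost without Dex replicate 1 (adjusted p = 0.0786). Of 28 TNF superfamily genes 15 were lower and 2 higher, and of 11 Toll-like receptor genes 6 were lower and 3 higher. Of 18 S phase genes 14 were higher with Dex and none lower (median 0.348), with MCM3 at 213 and 222 CPM in Dex libraries, against 162 and 163 CPM in IFNg libraries and 172 to 187 CPM in vehicle and the licensing factor CDT1 at 49.6 and 44.9 CPM in Dex libraries, against 31.1 and 26.0 CPM in IFNg libraries. Against vehicle Dex raised 11 of the 18 and IFNg lowered 5, beside 13.0% and 4.75% of all genes tested. Of 26 G2 and M phase genes 1 was called, CCNB1, lower by 0.36 on the log2 scale. Of 20 genes of the MYC network and ribosome biogenesis 4 were higher and 6 lower; MYC itself had 87.5 and 79.6 CPM in Dex libraries, against 59.8 and 55.4 CPM in IFNg libraries (0.53 ± 0.07). Of 13 plasma cell genes 5 were higher and 4 lower, and of 17 clock genes 4 were higher and 1 lower. All list counts of the direct contrast in this paragraph stand beside 13.7% higher and 14.8% lower over all genes tested.

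The contrast was read again in the DMSO-pretreated 6 h libraries, which share none with the panel and were tested over 15183 genes. There 1711 genes were higher (11.3%) and 1595 lower (10.5%) with Dex than with IFNg. Of the panel's higher and lower genes that were tested there (2136 and 2308), 1308 and 1318 were called in the same direction and none in the other, and 2028 and 2205 had the same sign. Over these 4444 genes the slope of the second experiment on the first was 0.822 and Pearson's r was 0.913, as a description across genes, which are not independent. In that experiment Dex raised 1224 genes (8.06%) and lowered 1144 (7.53%), and IFNg raised 527 (3.47%) and lowered 478 (3.15%), against shared DMSO-pretreated vehicle libraries. Of the panel's 4 classes 131 of 372, 67 of 198, 45 of 163 and 105 of 254 genes tested were in the same class there and none in another class. Both signs were the same for 346, 184, 147 and 244. The 6 h vehicle and IFNg replicates of this experiment were uneven, with a chi-square per degree of freedom of 7.28 and 5.94. The Dex replicates had 2.59. The classes here rest on that vehicle pair, and no fit left out 1 of its libraries. For all 12 genes furthest on the IFNg side IFNg replicate 1 was below replicate 2, at a median ratio of 0.619, compared with 0.996 in the panel. CXCL9 had 4.55 and 5.11 CPM in the Dex libraries, against 62.1 and 224 CPM in the IFNg libraries. Over the wider list of IFNg targets the median ratio was 0.882. The part of IFNg replicate 1 in the counts of called genes was not tested. A fit without it holds 1 library of that group, so the group's spread is no longer measured. In the DMSO-pretreated 6 h libraries IFNg targets had a median of -1.60 and type I interferon-stimulated genes -1.15. Guanylate-binding proteins had a median of -3.25 and glucocorticoid-induced genes 0.609, against 0.00371 over all genes.

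Fewer genes were called at 1 h than at 6 h. Of 15183 genes 66 were higher (0.435%) and 105 lower (0.692%) with Dex than with IFNg after DMSO pretreatment. Of the 24 genes furthest apart at 6 h, 4 of 12 on the Dex side and 8 of 12 on the IFNg side were called at 1 h. TSC22D3 had 272 and 257 CPM in Dex libraries, against 31.1 and 30.04 CPM in IFNg libraries and 36.2 and 32.5 CPM in vehicle at 1 h. IRF1 had 43.9 and 45.6 CPM in Dex libraries, against 691 and 678 CPM in IFNg libraries and 68.1 and 67.6 CPM in vehicle, a log2 difference of -3.93 ± 0.19 compared with -3.15 ± 0.19 at 6 h. SOCS3 had 9.18 and 6.88 CPM in Dex libraries, against 77.3 and 79.1 CPM in IFNg libraries (-3.29 ± 0.11, and -1.32 ± 0.11 at 6 h). For CISH the difference at 1 h was -1.05 ± 0.18 and at 6 h 0.13 ± 0.19. TSC22D3 and IRF1 thus differed between the stimuli from the first time point, while FKBP5 had a difference of 0.03 ± 0.05 at 1 h and 2.96 ± 0.05 at 6 h. Differences between the times were not tested.

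The median gap of the genes over 2-fold apart in the panel was smaller after BRM014 than after DMSO. After BRM014 1552 genes differed between Dex and IFNg at 6 h (10.2%), 728 higher and 824 lower with Dex. The interaction, the Dex over IFNg difference with BRM014 minus that with DMSO, was called for 608 genes (4.0%), 232 positive and 376 negative. For genes over 2-fold higher with Dex in the panel (383 tested) the median log2 difference was 0.579 with BRM014 and 1.32 with DMSO, and the interaction was negative for 107 and positive for 2. For genes over 2-fold lower (297 tested) the medians were -0.841 and -1.25, and the interaction was positive for 54 and negative for 1. These genes were chosen in the panel, without the pretreatment libraries. Of the 24 furthest genes, whose choice used the DMSO-pretreated contrast that is 1 arm of the interaction, 14 were called, 7 on each side, all toward 0. TSC22D3 had 233 and 232 CPM in Dex libraries, against 29.3 and 33.0 CPM in IFNg libraries after BRM014, and 529.8 and 547 CPM against 26.2 and 23.7 CPM after DMSO. UBD had 7.69 and 7.61 CPM against 13.9 and 14.7 CPM after BRM014, and 16.3 and 13.1 CPM against 141 and 198 CPM after DMSO. GBP4 had 8.17 and 8.61 CPM against 118 and 119.6 CPM after BRM014, and 11.8 and 11.4 CPM against 329.5 and 498 CPM after DMSO. In TSC22D3 the Dex libraries were lower with BRM014, and in UBD and GBP4 the libraries of both stimuli were, those of IFNg by the larger ratio. For GBP4 the interaction was 1.33 ± 0.31 (adjusted p = 0.025), a call kept without either DMSO-pretreated IFNg library and lost without any 1 of the other 6 libraries (adjusted p 0.0563 to 0.140). For CIITA it was 0.28 ± 0.10 (adjusted p = 0.123). GRIN2A differed by 2.66 ± 0.12 with BRM014 and 2.89 ± 0.12 with DMSO, and the interaction was not called. CXCL9 had 3.11 and 3.31 CPM against 4.04 and 3.78 CPM after BRM014, a difference of -0.28 ± 0.82 that was not called, though the libraries did not overlap. Its standard error comes from the fit over all 24 pretreatment libraries, the uneven IFNg pair after DMSO included.

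**Figure D5:**
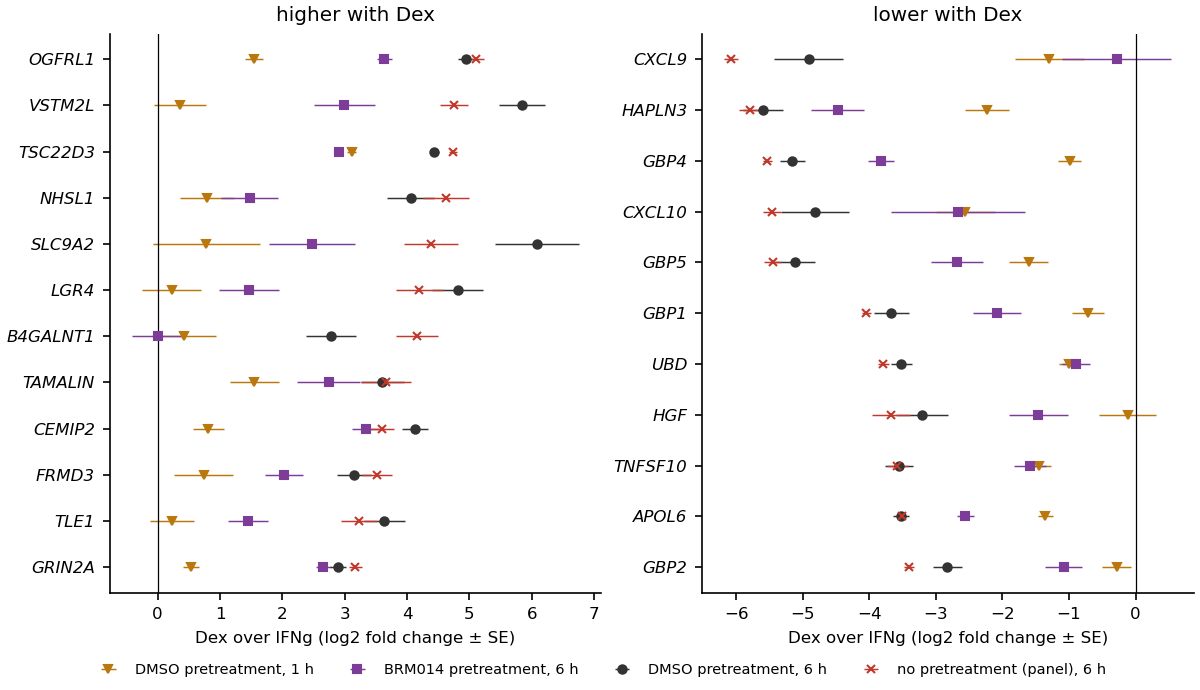
Log2 fold change of Dex over IFNg (± standard error of the fit) for genes among the 12 furthest on each side, in 4 settings: panel at 6 h, DMSO pretreatment at 6 h, BRM014 pretreatment at 6 h and DMSO pretreatment at 1 h. For every gene drawn the BRM014 value lies nearer 0 than the DMSO value at 6 h, and TSC22D3 stands out at 1 h with 3.11. The genes were chosen partly by their DMSO call at 6 h, which favours this order.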

How the data were processed

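Libraries of GM12878 RNA were read as gene-level expected counts (estimated counts per gene), which the authors deposited; per the submitters' processing notes STAR, RSEM and hg38 were used, while versions, and whether counting used strand, are not given in the sources used here. Values of genes that overlap another gene, antisense ones included, are therefore uncertain. Expected counts were rounded to whole numbers (4.20% to 4.80% of values were not whole). Of 59526 identifiers 58780 were Ensembl genes and the other 746 held 0 counts; coordinates come from GENCODE on hg38. Groups came from sample titles. Genes passing edgeR's expression filter were fitted with TMM scaling and the quasi-likelihood test (edgeR 4.0.16, limma 3.58.1, R 4.3.3) over the panel (15 libraries, 15775 genes) and separately over the pretreatment experiment (24 libraries, 15183 genes), with p-values adjusted over all genes. The panel's direct contrast was run on simulated data with the same spread for all genes. The vehicle comparisons, the pretreatment fit and the interaction were not simulated. Replicates of each group differed by more than sampling noise. Intervals and floors cover counting error only.

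Named genes were the 12 furthest in each direction of the contrast (called, at least 5 CPM, no overlap, called alike after DMSO), 8 per direction class by the smaller of the Dex and IFNg changes (at least 5 CPM in the highest group mean), up to 4 per gene list plus all called members of a list with 5 or fewer in a direction, and a fixed set around GBP4 and CIITA. Members and lists were chosen with earlier results of these data known. DESeq2 1.42.0, other scaling, no filter, a replicate block, other vehicles and left-out libraries were alternatives. Some genes that this rule names are not reported here.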

Additional observations from a re-analysis of the deposited data

Results flagged for a closer look

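At 6 h the difference between Dex and IFNg itself differed between BRM014 and DMSO pretreatment for 14 of the 24 genes furthest apart. This was the edgeR interaction at an adjusted p below 0.05, with 2 libraries per group. Over all 15183 genes tested the interaction was called for 608 (4.0%). The choice of the 24 used the DMSO-pretreated contrast, which is 1 arm of the interaction, and this favours values toward 0. Values are the log2 difference with BRM014 minus that with DMSO. Among genes on the Dex side it was -1.31 for OGFRL1, -2.85 for VSTM2L, -1.53 for TSC22D3, -2.58 for NHSL1, -3.35 for LGR4, -2.77 for B4GALNT1 and -2.19 for TLE1. On the IFNg side it was 1.75 for GBP2, 0.97 for APOL6, 1.97 for TNFSF10, 2.62 for UBD, 2.43 for GBP5, 1.33 for GBP4 and 4.63 for CXCL9. The call held in each of the 8 fits that left out 1 library for OGFRL1, TSC22D3, B4GALNT1, APOL6, TNFSF10 and UBD. It held in 7 for LGR4 and TLE1, in 5 for NHSL1, in 4 for GBP2 and GBP5, and in 2 for GBP4, CXCL9 and VSTM2L. The VSTM2L call was also lost with a replicate block (adjusted p = 0.0555) and the NHSL1 call in DESeq2 (adjusted p = 0.0548).

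In the DMSO-pretreated IFNg 6 h group replicate 1 was below replicate 2 for all of GBP2, GBP4, GBP5, CXCL9, UBD, TNFSF10 and APOL6. Without replicate 1 the interaction was 5.26 for CXCL9 and 1.6 for GBP4, and without replicate 2 it was 3.40 and 0.99. The 2 fits in which the GBP4 and CXCL9 calls held were these. Each leaves 1 library in that group, so the pair's spread is out of the fit and the kept calls are no firmer. The part of replicate 1 in these results was otherwise not tested.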

How the results depend on the processing

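The direct contrast kept its counts within 1.5 times under every alternative run. DESeq2 called 1445 genes higher and 1821 lower, and leaving out 1 library gave 1588 to 1803 higher and 1764 to 1996 lower. With a replicate block the panel gave 2237 higher and 2437 lower genes. The labels do not say that a number marks a shared culture or day; with 2 pairs the deviations of same-numbered libraries correlated at 0.162 in the panel and 0.101 in the pretreatment experiment.

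The direction classes depended more on the processing. Genes raised by Dex and lowered by IFNg (198) numbered 110 in DESeq2, 130 with Dex against PBS and IFNg against DMSO, and 94 to 181 with 1 library left out (117 without IFNg replicate 1, 94 without replicate 2). Genes lowered by both (254) numbered 154 in DESeq2, 157 with those vehicles, and 121 to 272 with 1 library left out (147 without IFNg replicate 1, 121 without replicate 2). The rule applied to the DMSO-pretreated libraries, an alternative chosen after seeing the data, gave 154 genes lowered by Dex and raised by IFNg, 96 the reverse, 58 raised by both and 156 lowered by both. At 1 h leaving out 1 library gave 111 to 130 called genes, against 171. The causes were not tested. No result changed direction.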
